A study of Marchantia polymorpha with 9 samples.

Results

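The 104 genes described here stood higher in every mutant library than in every wild-type library of the liverwort Marchantia polymorpha, by a ratio of 3 or more. They were chosen from the measured values. The level of a gene was its CPM, its share of the library's unique gene reads times 1000000. A gene was taken when its lowest CPM in the 6 mutant libraries was at least 1 and at least 3 times its highest CPM in the 3 BoGa libraries. Of 20574 genes listed, 20090 lie on chromosomes 1 to 8, and 104 of these (0.518%) were taken after 15 genes had been left out by name, of which 14 meet the rule. All 104 had enough reads to be among the 14360 genes tested. The difference between the mutants and BoGa chose the genes, so their levels against BoGa are a description, with no test.

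The libraries came from the mutants Mpb-gata1-2 and Mpb-gata1-1 and from BoGa, labelled as the wild type, with 3 libraries in each group. Every library was made with a stranded mRNA kit from 3 pooled whole plants that were 3 weeks old, untreated and kept on Gamborg's medium at 22 °C with 16 h of light at 40 µmol per square metre and second and 8 h of dark. What the lesions are is not in the labels, and each allele is represented by 1 line as far as they show. Nothing beyond the pools tells whether replicates came from separate cultures, so the spread behind each p-value is that between pools and may be technical.

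B-class GATA factors are zinc finger transcription factors, which in flowering plants act in greening downstream of light and cytokinin. Many of the named genes among the 104 encode late embryogenesis abundant (LEA) proteins. These are very hydrophilic, largely unfolded proteins that shield membranes and other proteins while cells lose water. In liverworts and mosses they accumulate in vegetative tissue on drying and under abscisic acid, the hormone that induces drying tolerance in Marchantia.

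Libraries held 24369754 to 43370483 unique gene reads, 98.2 to 98.3% of all gene reads. Replicate pairs differed by more than sampling noise, with 8.19 to 43.4 of chi-square per degree of freedom. MpGATA4 (Mp7g03490), known from the study itself as B-GATA1 although the sources used here do not pair the names, had 288, 291 and 291 CPM in Mpb-gata1-2 plants and 261, 255 and 263 CPM in Mpb-gata1-1, against 148, 150.4 and 153 CPM in BoGa. It was higher in the mutants (log2 0.82 ± 0.04 SE, edgeR quasi-likelihood test, adjusted p = 3.69e-07), and a transcript level says nothing of the allele. The level of 22 genes of the male sex chromosome V, relative to their mean in Mpb-gata1-2, was 0.947 to 1.04 in Mpb-gata1-2, 0.0171 to 0.0254 in Mpb-gata1-1 and 0.359, 0.515 and 0.665 in BoGa. Allele, line and V level cannot be told apart in any comparison of these groups. MpBNB and MpBZR3, regulators of the sexual organs, had 0 reads in each of the 9 libraries.

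As a group, the 104 genes were low in BoGa and reached moderate levels in the mutants. The median of their mean levels was 14.6 CPM in Mpb-gata1-2 plants and 10.7 CPM in Mpb-gata1-1, against 0.780 CPM in BoGa, while the median of all tested genes was 25.4, 25.6 and 25.0 CPM in the same order of groups. In BoGa 55 of the 104 averaged under 1 CPM and 95 under 5 CPM. A mean of at least 50 CPM was reached by 20 of them in Mpb-gata1-2 plants and by 10 in Mpb-gata1-1, and by 1 in BoGa. In these whole-plant samples more cells of a type and more RNA per cell cannot be told apart.

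The median fold over the BoGa mean was 18.9 in Mpb-gata1-2 plants and 12.2 in Mpb-gata1-1. The 3 genes without BoGa reads entered these medians at the lowest fold that 3 reads over the BoGa group would give. The lowest folds were 4.77 in Mpb-gata1-2 plants and 4.50 in Mpb-gata1-1. The median ratio of the lowest mutant library to the highest BoGa library was 7.14, with 30 genes at 10 or above and 14 under 4. Just inside the limit of 3 were Mp1g03150 with a ratio of 3.02 (33.7 CPM in its lowest mutant library, 11.1 CPM in its highest BoGa library), Mp7g05690 with 3.17 and Mp3g02290 with 3.30. Just outside were MpGCS1 (Mp4g01100) with 2.98, MpDIR58 (Mp2g03460) with 2.87 and Mp4g02590 with 2.86, so the limit cuts through a continuous range.

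**Figure D1:**
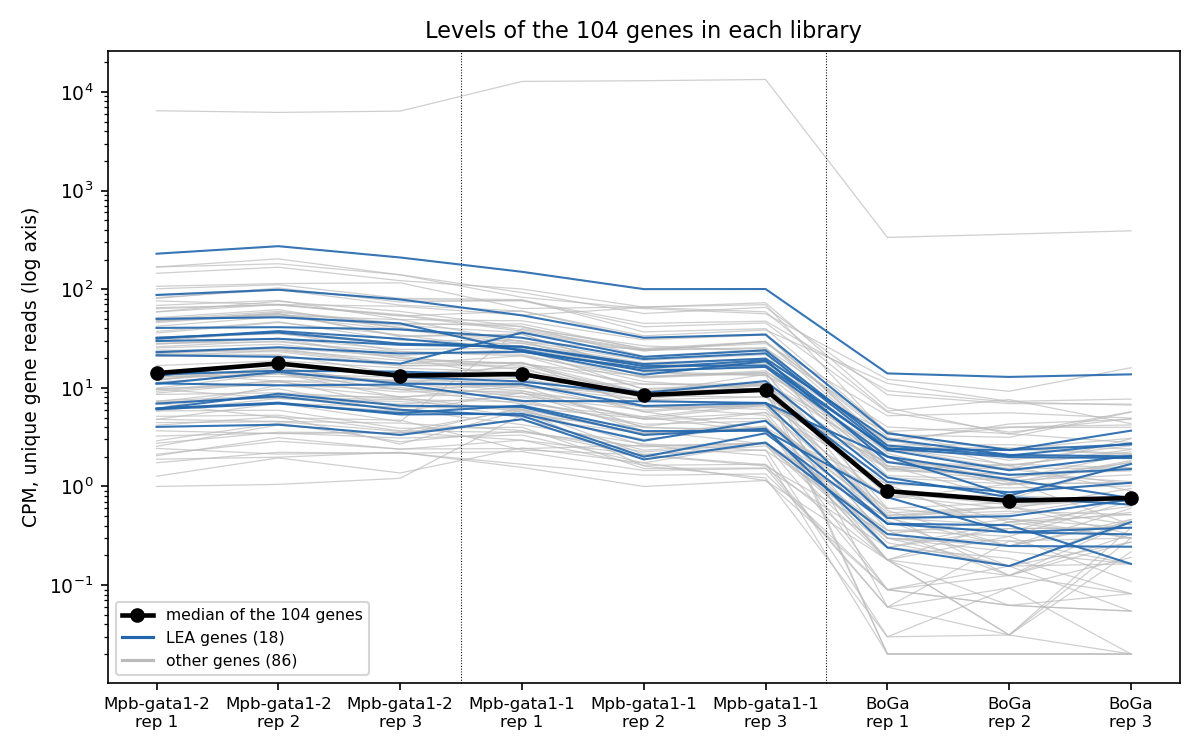
CPM of each of the 104 genes in the 9 libraries on a log axis, with a line for each gene, values under 0.02 CPM drawn at 0.02, the 18 LEA genes in blue, the other 86 in grey and the median of the 104 in black; lines join libraries only to mark the gene. Every gene lies lower in the 3 BoGa libraries, as the choice required, and the median line is higher in replicate 1 of Mpb-gata1-1 than in its other replicates.

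The genes were short. Their median length in the deposited tables, introns included, was 1706 bp, against 3580.0 bp over all tested genes, and 66 of them (63.5%) were under 2000 bp, against 21.6% of tested genes. The range ran over 686 to 14628 bp, and 4 were longer than 5000 bp. Reads shared with other genes were few for most, since 95 of the 104 had at least 90% unique reads. The 9 others are less certain because copies can share their reads, and among those described below these are MpLEA-like60 (77.6% unique), MpLEA-like61 (76.9%), MpLEAL3 (83.4%), MpLEA-like45 (84.2%), Mp4g18570 (69.3%), Mp7g07360 (89.6%) and Mp7g07370 (42.2%). A total of 4 genes, Mp4g18570 among them, overlap another gene on the same strand.

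Of the 104 genes, 23 (22.1%) had a symbol in the name table, against 18.6% of tested genes, and 18 of these 23 were LEA genes. The other 5 were MpDHAR4, MpSUT4, MpMTPSL2, MpGH16.29 and MpIAR4B. The 81 genes without a symbol are given by locus number, with no role.

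The named member with the highest TPM in the mutants was MpLEAL1 (Mp4g09300; chromosome 4, 10402146 to 10403008, minus strand), a short LEA gene. It had 229, 273 and 209.7 CPM in the Mpb-gata1-2 libraries and 150.1, 100.2 and 100.4 CPM in the Mpb-gata1-1 libraries, against 14.0, 12.9 and 13.7 CPM in the BoGa libraries. All mutant libraries stood far above BoGa, and all Mpb-gata1-2 libraries above all Mpb-gata1-1 libraries. The mean was 237 ± 32.4 CPM in Mpb-gata1-2 plants and 117 ± 28.8 CPM in Mpb-gata1-1, against 13.5 ± 0.563 CPM in BoGa (SD, n = 3 each), which is 17.5-fold and 8.63-fold over BoGa. On the authors' TPM scale, which divides by gene length, it ranked 169 in Mpb-gata1-2 plants and 356 in Mpb-gata1-1, against 3654 in BoGa, among all genes listed.

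MpLEA1 (Mp5g23710; chromosome 5, 25521438 to 25523315, plus strand) had 87.3, 98.7 and 78.7 CPM in Mpb-gata1-2 plants and 54.3, 32.2 and 34.7 CPM in Mpb-gata1-1, against 3.47, 2.34 and 3.68 CPM in BoGa. MpLEA-like7 (Mp2g02010; chromosome 2, 2246575 to 2249861, minus strand) had 45.0 to 51.9 CPM (mean 48.9 ± 3.58 SD, n = 3) in Mpb-gata1-2 plants and 23.5, 13.6 and 18.6 CPM in Mpb-gata1-1, against 2.34, 1.46 and 2.04 CPM in BoGa. In both genes the 3 groups did not overlap, with Mpb-gata1-2 highest. MpLEA-like48 averaged 40.2, MpLEAL5 32.2 and MpLEA-like14 29.5 CPM in Mpb-gata1-2. The same genes averaged 24.7, 21.1 and 19.9 CPM in Mpb-gata1-1, against 2.12, 2.38 and 2.47 CPM in BoGa. Each stood many times higher in both mutants than in BoGa, as the choice required.

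MpLEA-like12 (Mp3g04820) was the LEA member with the higher fitted level in Mpb-gata1-1. It had 21.4, 20.6 and 17.6 CPM in Mpb-gata1-2 plants and 36.3, 20.6 and 24.0 CPM in Mpb-gata1-1, against 2.60, 2.06 and 2.73 CPM in BoGa. The mutants overlapped, and their difference did not pass the test (log2 -0.43 ± 0.18 SE, edgeR adjusted p = 0.108). MpLEA-like15 (Mp3g18220), a longer gene of 5605 bp, had the smallest fold over BoGa in Mpb-gata1-1, with 11.1, 10.6 and 10.8 CPM in Mpb-gata1-2 plants and 7.35, 7.31 and 7.03 CPM in Mpb-gata1-1, against 1.31 to 2.01 CPM in BoGa. Its replicates lay closer together than those of most LEA members. The other 10 LEA genes averaged between 3.86 CPM (MpLEA-like39) and 33.5 CPM (MpLEA-like37) in Mpb-gata1-2.

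Of the members with other named functions, MpDHAR4 belongs to the dehydroascorbate reductases, which recycle the antioxidant ascorbate. It had 24.1, 24.2 and 19.0 CPM in Mpb-gata1-2 plants and a mean of 12.6 ± 4.66 CPM (SD, n = 3) with 17.9 CPM in the highest library in Mpb-gata1-1, against 2.49, 2.46 and 2.15 CPM in BoGa. MpSUT4 carries the symbol of sucrose transporters, which move sucrose across membranes. It had 27.8, 31.7 and 24.5 CPM in Mpb-gata1-2 plants and 25.2, 15.4 and 18.1 CPM in Mpb-gata1-1, against 2.96, 1.84 and 2.59 CPM in BoGa. In both genes replicate 1 of Mpb-gata1-1 was the highest of its group, and for MpSUT4 it fell within the Mpb-gata1-2 range.

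MpMTPSL2 carries the symbol of the microbial-type terpene synthase-like proteins, enzymes that make volatile terpenes in liverworts and other non-seed plants. It had 6.95, 4.97 and 4.70 CPM in Mpb-gata1-2 plants and 2.34, 2.09 and 1.66 CPM in Mpb-gata1-1, against 0.0599, 0.280 and 0.164 CPM in BoGa. MpIAR4B, named after an Arabidopsis gene for a mitochondrial pyruvate dehydrogenase subunit, had 7.10, 7.97 and 6.07 CPM in Mpb-gata1-2 plants and 4.23, 2.70 and 2.31 CPM in Mpb-gata1-1, against 0.359, 0.374 and 0.382 CPM in BoGa. MpGH16.29 is of glycoside hydrolase family 16, whose plant members cut and join xyloglucan in the cell wall. It had 1.00, 1.05 and 1.21 CPM in Mpb-gata1-2 plants and 5.33, 3.00 and 4.10 CPM in Mpb-gata1-1, against 0.0898, 0.0623 and 0.0545 CPM in BoGa. In MpGH16.29, unlike the other 2, the libraries of Mpb-gata1-1 were the high ones.

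A single gene without a symbol held most of the reads of the whole set. Mp7g01940 (chromosome 7, 2581293 to 2588456, minus strand) had 6447, 6199 and 6395 CPM in Mpb-gata1-2 plants and 12779, 12992 and 13375 CPM in Mpb-gata1-1, against 335, 361 and 391 CPM in BoGa. The groups were far apart and the replicates close, with Mpb-gata1-1 highest. The means of 6347 ± 131, 13049 ± 302 and 362 ± 28.1 CPM (SD, n = 3 each; Mpb-gata1-2, Mpb-gata1-1 and BoGa) are 17.5-fold and 36.0-fold over BoGa in the mutants. By mean TPM it ranked 29 in Mpb-gata1-2 plants and 10 in Mpb-gata1-1, against 1072 in BoGa. The 104 genes together took 0.917 to 0.982% of reads in Mpb-gata1-2 plants and 1.45 to 1.52% in Mpb-gata1-1, against 0.0514 to 0.0566% in BoGa. Without Mp7g01940 their summed level was 2777 to 3622 CPM in Mpb-gata1-2 plants and 1476 to 2374 CPM in Mpb-gata1-1, against 153 to 188 CPM in BoGa, so the order of the mutants in the sum turns on this gene.

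The other unnamed members with high levels had the opposite order of the mutants. Mp7g07360 had 168, 203 and 139.7 CPM in Mpb-gata1-2 plants and 82.8, 63.6 and 56.4 CPM in Mpb-gata1-1, against 12.2, 9.23 and 16.0 CPM in BoGa. Mp8g13560 had 168, 181 and 140.3 CPM in Mpb-gata1-2 plants and 92.5, 56.7 and 65.6 CPM in Mpb-gata1-1, against 8.50, 6.92 and 6.84 CPM in BoGa. Mp4g15050 had 145, 167 and 122 CPM in Mpb-gata1-2 plants and 100.4, 65.8 and 72.9 CPM in Mpb-gata1-1, against 6.29, 3.40 and 5.73 CPM in BoGa. In these 3 genes replicate 2 of Mpb-gata1-2 and replicate 1 of Mpb-gata1-1 were the highest of their groups. Mp5g05780 differed from them in its even replicates, with 107, 114 and 116 CPM in Mpb-gata1-2 plants and 63.7, 66.1 and 69.7 CPM in Mpb-gata1-1, against 3.35, 3.15 and 5.67 CPM in BoGa.

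**Figure D2:**
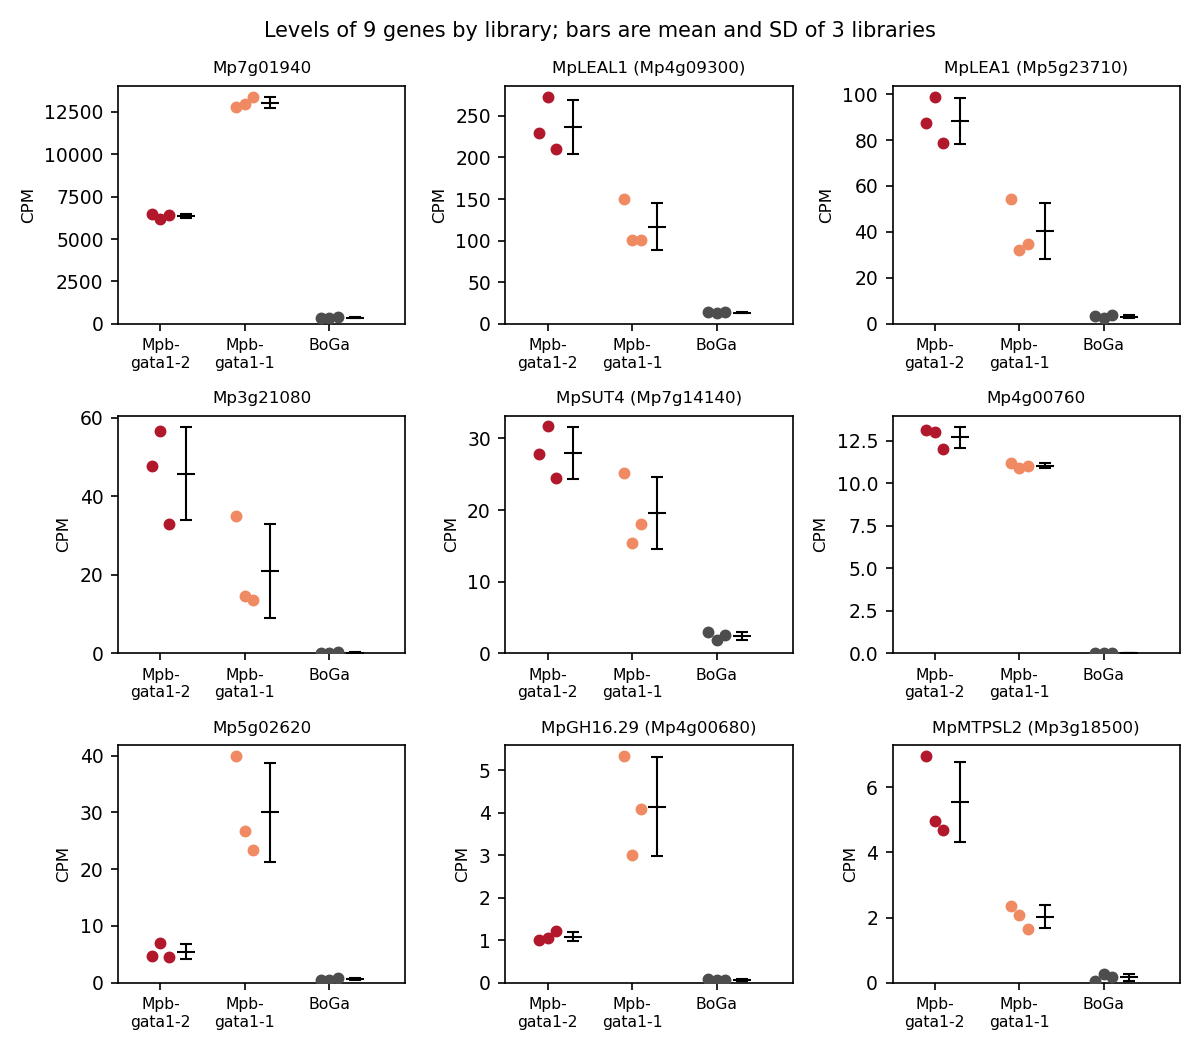
CPM of 9 of the genes in each library (points) with the mean and SD of the 3 libraries (bars beside them), for Mpb-gata1-2, Mpb-gata1-1 and BoGa from left to right, each panel on its own linear axis from 0. Mp7g01940, MpGH16.29 and Mp5g02620 stand higher in Mpb-gata1-1, the other 6 have the higher mean in Mpb-gata1-2, and Mp4g00760 is at 0 in BoGa.

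Some members were barely read in BoGa. The 3 neighbouring genes Mp4g00740, Mp4g00750 and Mp4g00760 (chromosome 4, 962864 to 970757) had 0 reads in all BoGa libraries. Mp4g00760 had 13.1, 13.0 and 12.0 CPM in Mpb-gata1-2 plants and 11.2, 10.9 and 11.0 CPM in Mpb-gata1-1. Mp4g00740 had 14.2, 11.7 and 11.8 CPM in Mpb-gata1-2 plants and 9.89, 9.34 and 9.66 CPM in Mpb-gata1-1, and Mp4g00750 had 2.12, 2.87 and 2.40 CPM in Mpb-gata1-2 plants and 2.42, 2.61 and 2.05 CPM in Mpb-gata1-1. Replicates of each mutant lay close together, and the mutants overlapped for Mp4g00750. For Mp4g00740 all Mpb-gata1-2 libraries were above all Mpb-gata1-1 libraries (log2 0.40, edgeR adjusted p = 0.0216), a call that did not pass without replicate 1 of Mpb-gata1-2 (0.0824), nor without replicate 2 (0.0657) or replicate 3 (0.0666) of Mpb-gata1-1.

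With BoGa set to a floor of 3 reads for the whole group, Mp4g00760 was at least 432-fold higher in Mpb-gata1-2 plants, and in Mpb-gata1-1 plants at least 376-fold higher. For Mp4g00740 the lower bounds were 429-fold in Mpb-gata1-2 plants and 328-fold in Mpb-gata1-1, and for Mp4g00750 they were 84.0-fold in Mpb-gata1-2 plants and 80.4-fold in Mpb-gata1-1. The gene beside them, Mp4g00730, was not taken for its low level. It had 30 reads in Mpb-gata1-2 plants and 49 in Mpb-gata1-1, against 0 in BoGa. The next, Mp4g00720, had 5 reads in Mpb-gata1-2 plants and 6 in Mpb-gata1-1, against 0 in BoGa.

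With reads in BoGa, the largest fold in Mpb-gata1-2 was that of Mp3g21080 (chromosome 3, 21795839 to 21798388, plus strand). It had 47.8, 56.6 and 33.0 CPM in Mpb-gata1-2 plants and 34.9, 14.6 and 13.5 CPM in Mpb-gata1-1, against 0.0599, 0.0312 and 0.382 CPM in BoGa, 291-fold and 133-fold over the BoGa mean. Mp5g10000 had 37.3, 46.8 and 30.4 CPM in Mpb-gata1-2 plants and 30.0, 12.9 and 14.2 CPM in Mpb-gata1-1, against 0.449, 0.156 and 0.463 CPM in BoGa. In both genes replicate 1 of Mpb-gata1-1 reached or came near the lowest Mpb-gata1-2 library. Mp5g09770, named after its values were seen, had 377 reads in Mpb-gata1-2 plants and 251 in Mpb-gata1-1, against 2 in BoGa. Its ratio to BoGa was 199 (95% counting interval 54.6 to 1646) in Mpb-gata1-2 plants and 127 (34.9 to 1057) in Mpb-gata1-1, and such intervals and floors cover counting error only.

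The mutants were compared with each other next, since the rule treats their 6 libraries alike. Of the 104 genes, 66 (63.5%) were higher in Mpb-gata1-2 than in Mpb-gata1-1 in edgeR's quasi-likelihood test (Benjamini-Hochberg adjusted p under 0.05 over all tested genes). Over all tested genes 15.2% were called in this direction. Only 4 of the 104 (3.85%) were lower in Mpb-gata1-2, against 16.1% of all tested genes, and 34 did not pass. The median log2 difference of the 104 was 0.72 (quartiles 0.52 and 1.02), against 0.00 over all tested genes, and the fitted difference was positive in 96. In 62 genes all Mpb-gata1-2 libraries lay above all Mpb-gata1-1 libraries (22.6% of tested genes), in 4 all lay below (26.5%), and in 38 the mutants overlapped. The count of 66 depended on single libraries: it was 39 without Mpb-gata1-2 replicate 2, 41 without Mpb-gata1-1 replicate 2 and 35 without Mpb-gata1-1 replicate 3. It was 16 when a fold beyond 1.5 was required.

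The largest differences in this direction were those of Mp2g15320, MpMTPSL2, Mp5g02280, MpLEA-like7 and Mp7g07360. Mp2g15320 averaged 24.4 ± 3.94 CPM in Mpb-gata1-2 plants and 8.94 ± 3.07 CPM in Mpb-gata1-1 (SD, n = 3 each), without overlap, a log2 difference of 1.48 ± 0.20 (SE, edgeR adjusted p = 0.000388). The log2 difference was 1.47 ± 0.23 for MpMTPSL2 (adjusted p = 0.000715), 1.41 ± 0.17 for MpLEA-like7 (0.000171) and 1.35 ± 0.20 for Mp7g07360 (0.000609). Each of these 4 kept its call when any library was left out. Mp5g02280, with 9.23, 11.8 and 6.41 CPM in Mpb-gata1-2 plants and 6.07, 2.12 and 2.35 CPM in Mpb-gata1-1, had 1.44 ± 0.38 (edgeR adjusted p = 0.0166). It did not pass without replicate 2 of Mpb-gata1-2 (0.0666), nor without replicate 2 (0.0572) or replicate 3 (0.0695) of Mpb-gata1-1.

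Of the 18 LEA members, 11 were higher in Mpb-gata1-2, with a median log2 difference of 0.60 over the 18, close to the 63.5% and the median of 0.72 of all 104 genes, and against 15.2% of all tested genes. MpLEAL1 (1.03 ± 0.15, edgeR adjusted p = 0.000675) and MpLEA1 (1.14 ± 0.19, 0.00133) were among them and kept the call in each alternative run for single genes. MpIAR4B had 1.23 ± 0.20 (0.000949) and kept it as well. MpDHAR4 had 0.85 ± 0.21 (0.0119), which did not pass without Mpb-gata1-1 replicate 3 (0.0521).

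Of the 4 genes lower in Mpb-gata1-2, only MpGH16.29 has a symbol. Mp5g02620 (chromosome 5, 3168310 to 3169918, minus strand) had 4.79, 6.98 and 4.55 CPM in Mpb-gata1-2 plants and 39.9, 26.7 and 23.4 CPM in Mpb-gata1-1, against 0.479, 0.530 and 0.818 CPM in BoGa. Its log2 difference between the mutants was -2.45 ± 0.23 (SE, edgeR adjusted p = 2.98e-05), and all Mpb-gata1-1 libraries were above all Mpb-gata1-2 libraries. MpGH16.29 had -1.89 ± 0.22 (adjusted p = 0.000104) and Mp7g01940 had -1.03 ± 0.06 (9.19e-07). Mp3g10380 had 2.55, 4.20 and 3.31 CPM in Mpb-gata1-2 plants and 6.32, 4.88 and 6.71 CPM in Mpb-gata1-1, against 0.299, 0.156 and 0.164 CPM in BoGa. Its difference of -0.81 ± 0.20 (edgeR adjusted p = 0.0103) did not pass without Mpb-gata1-1 replicate 3 (0.0511).

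**Figure D3:**
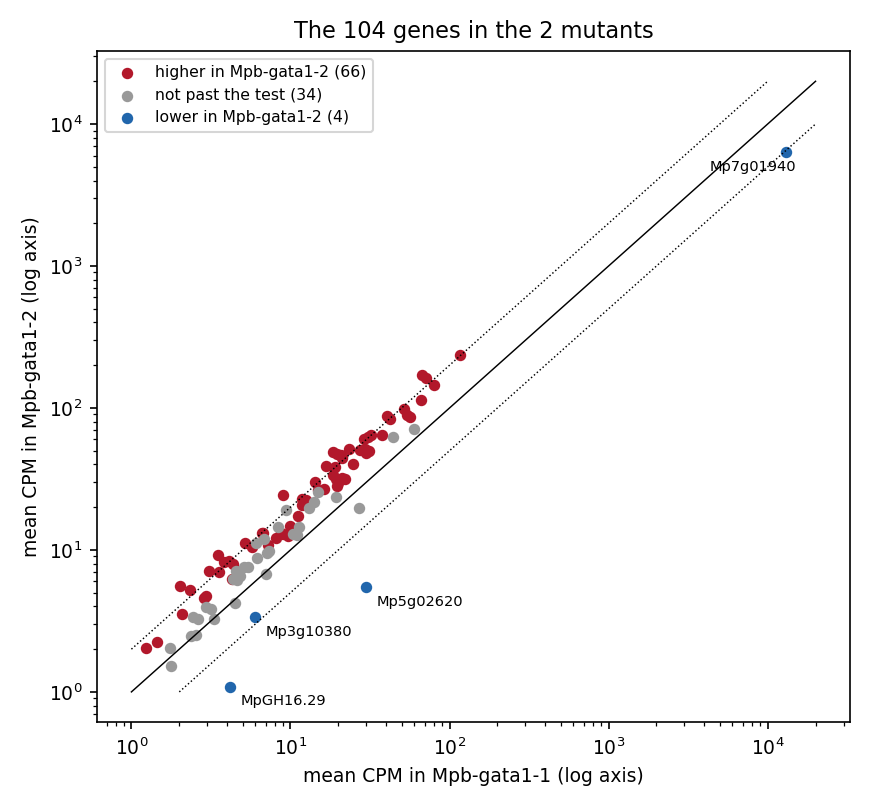
Mean CPM of each of the 104 genes in Mpb-gata1-2 (vertical, log axis) and in Mpb-gata1-1 (horizontal, log axis), coloured by the test between the mutants; the solid line marks equal levels and the dotted lines a difference by a factor of 2. Most points lie above the solid line, 66 of them past the test, while the 4 labelled genes lie below it, Mp7g01940 far to the right of all others.

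The replicates of a group did not hold the genes at even levels. After TMM scaling, which sets library sizes by the bulk of genes, 99 of the 104 were highest in replicate 1 among the Mpb-gata1-1 libraries, against 38.0% of all tested genes. Among the Mpb-gata1-2 libraries 89 were highest in replicate 2 (34.0% of tested genes) and 76 were lowest in replicate 3 (28.6%). In BoGa 51 were highest in replicate 1 (33.4%), 36 in replicate 3 (39.9%) and 17 in replicate 2 (26.7%). In CPM without TMM scaling, each gene was also set relative to the mean of its 6 mutant libraries. The median of the 104 for replicates 1, 2 and 3 was then 1.22, 1.40 and 1.08 in Mpb-gata1-2 plants. It was 1.02, 0.586 and 0.662 in Mpb-gata1-1 plants, and 0.0717, 0.0533 and 0.0593 in BoGa. Replicate 1 of Mpb-gata1-1 had the fewest unique reads of all libraries (24369754), and what part depth has in this was not tested.

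The ratio of Mpb-gata1-1 replicate 1 to the mean of its other 2 libraries had a median of 1.57 over the 104 genes (quartiles 1.42 and 1.82), against 0.999 over all tested genes (0.924 and 1.09). It was over 1.5, a bound set after the values were seen, in 67 of the 104 (64.4%) and in 525 tested genes (3.66%). Among 276 other genes called at least 2-fold higher in the mean of both mutants, it was over 1.5 in 105 (38.0%). High levels in this library thus reached beyond the 104. That mean includes replicate 1 of Mpb-gata1-1, so a high level there helped a gene to be among the 276. Of the 18 LEA members, 11 were over 1.5.

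A ratio of 1.2 or less, a bound also set after the values were seen, was found for 9 of the 104 genes. These were the chromosome 4 trio Mp4g00740 (1.05), Mp4g00750 (1.05) and Mp4g00760 (1.03), then Mp7g01940 (0.979), Mp5g05780 (0.946), Mp5g09960 (0.884), MpLEA-like15 (1.03), Mp3g10380 (1.10) and Mp7g07330 (1.12). Of the 4 genes lower in Mpb-gata1-2, Mp7g01940 and Mp3g10380 are thus among those where replicate 1 of Mpb-gata1-1 did not stand out. The ratio does not cover the spread between replicates 2 and 3, which had 4.88 and 6.71 CPM for Mp3g10380. Mp5g09960, the longest of the 104, had 76.1, 70.0 and 67.1 CPM in Mpb-gata1-2 plants and 54.4, 65.3 and 59.0 CPM in Mpb-gata1-1, against 5.81, 7.60 and 4.33 CPM in BoGa, and was named here for this ratio.

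**Figure D4:**
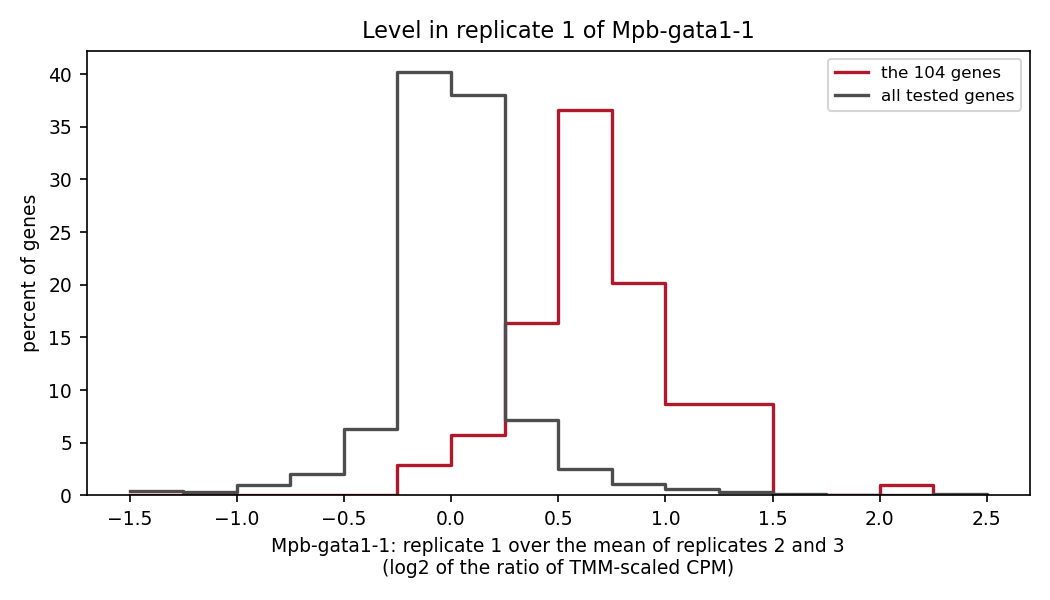
Percent of the 104 genes (red) and of all 14360 tested genes (grey) by the log2 ratio of Mpb-gata1-1 replicate 1 to the mean of replicates 2 and 3 (TMM-scaled CPM). All tested genes centre near a ratio of 1 (median 0.999), and the 104 genes are shifted to a median of 1.57 with 9 genes at 1.2 or less.

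Genes of other cell types and organs were read beside these values. Of 5 gemma cup and gemma symbols 4 were found, and their summed level was 127 to 132 CPM in Mpb-gata1-2 plants and 105 to 111 CPM in Mpb-gata1-1, against 77.4 to 99.9 CPM in BoGa. MpGCAM1, a regulator of gemma cup formation that the rule leaves out by name, had 28.5, 28.7 and 21.4 CPM in Mpb-gata1-2 plants and 14.5 and 12.9 CPM in replicates 2 and 3 of Mpb-gata1-1, where replicate 1 was higher, against 4.91, 4.64 and 5.86 CPM in BoGa. The other 3 changed less and not all one way, with log2 changes in the mutants of 0.43 for MpGRAS2 (edgeR adjusted p = 0.00241), 0.34 for MpKAR (0.0250) and -0.34 for MpCLE2 (0.000758). The 4 oil body genes summed to 27.4 to 29.5 CPM in Mpb-gata1-2 plants and 26.1 to 31.3 CPM in Mpb-gata1-1, against 23.4 to 29.5 CPM in BoGa. The 2 rhizoid genes summed to 29.5 to 34.5 CPM in Mpb-gata1-2 plants and 31.9 to 38.9 CPM in Mpb-gata1-1, against 26.3 to 28.3 CPM in BoGa. Nearly all of the rhizoid sum was MpRSL1 (25.6 to 38.0 CPM over the libraries), since MpFRH1 had 0.425 to 0.903 CPM. The 6 gametangiophore and gamete genes found for 7 symbols, of which MpBNB and MpBZR3 were at 0, summed to 362 to 380.1 CPM in Mpb-gata1-2 plants and 353 to 379 CPM in Mpb-gata1-1, against 422 to 501 CPM in BoGa. Most of this sum was MpTGA (log2 -0.57, edgeR adjusted p = 0.00305) and MpRKD (-0.25, 0.000491), while MpCKI1 did not pass (0.20, 0.449). The locus of MpFGMYB, a regulator of female development within that sum, had 14.6, 14.1 and 18.8 CPM in Mpb-gata1-2 plants and 0.574, 0.909 and 0.784 CPM in Mpb-gata1-1, against 6.71, 8.38 and 15.3 CPM in BoGa, so Mpb-gata1-1 was far below the others. In BoGa these values rose in the order of the V level (0.359, 0.515 and 0.665). The use of strand in counting is not given, so which strand of the locus was read is unknown. The part of these marker genes in the levels of the 104 genes was not tested.

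Members lay next to each other in several places. Of the 208 places directly beside a member, 30 (14.4%) were held by another member and 7 by a gene left out by name, while members make up 0.518% of genes on these chromosomes. In all 25 of the 104 genes (24.0%) touched another member. Of the 15 adjacent pairs, 10 were on one strand, against 52.1% of all adjacent gene pairs. With 3 or more members within 50 kb counted as a run, there were 7 runs with 24 members. Per chromosome the 104 genes numbered 7, 9, 23, 17, 11, 15, 16 and 6, from 0.227 per 100 genes on chromosome 1 to 0.863 on chromosome 3.

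The run with the most members covered chromosome 4, 20873760 to 20901518, where 5 of 9 listed genes were members, all on the plus strand and without symbols. Mp4g18550 had 23.3, 23.2 and 16.7 CPM in Mpb-gata1-2 plants and 17.8, 10.9 and 10.4 CPM in Mpb-gata1-1, against 0.868, 0.654 and 0.736 CPM in BoGa. Mp4g18610 averaged 13.2 CPM in Mpb-gata1-2 plants and 8.69 CPM in Mpb-gata1-1, against 0.427 CPM in BoGa. Mp4g18570, Mp4g18620 and Mp4g18630 averaged 2.25, 3.26 and 5.21 CPM in Mpb-gata1-2 plants and 1.44, 3.30 and 2.35 CPM in Mpb-gata1-1, against 0.0689, 0.108 and 0.0511 CPM in BoGa. Between them Mp4g18560 was below the minimum level, with 81 reads in Mpb-gata1-2 plants and 45 in Mpb-gata1-1, against 0 in BoGa. The other non-members, Mp4g18580, Mp4g18590 and Mp4g18600, overlap Mp4g18570 on the same strand. Mp4g18580 and Mp4g18600 had 0 unique reads, so the genes at this place are not well separated.

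Another run was made mostly of LEA genes (chromosome 6, 3396301 to 3455920). Of its 10 genes, MpLEAL3, MpLEA-like35, MpLEA-like37 and MpLEA-like39 were members and 2 were left out by name, and all of these 6 lie on the plus strand. MpLEA-like37 had 31.5, 37.6 and 31.4 CPM in Mpb-gata1-2 plants and 24.3, 14.9 and 16.3 CPM in Mpb-gata1-1, against 2.01, 0.810 and 1.69 CPM in BoGa. MpLEA-like38 among them was no member, and its means were 1.69 CPM in Mpb-gata1-2 plants and 0.953 CPM in Mpb-gata1-1, against 0.0567 CPM in BoGa. Genes without a LEA symbol lie between it and MpLEA-like39. Of these, Mp6g03020 and Mp6g03030 had 0 reads in every library. Mp6g03040 was lower in the mutants (log2 -0.32, edgeR adjusted p = 0.0274). MpLEA-like53 and MpLEA2 with Mp6g13370 (chromosome 6, 14609663 to 14614785), and MpLEA-like60 and MpLEA-like61 with Mp8g13560 (chromosome 8, 15273986 to 15284373), formed runs without a gap.

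Mp6g20750, Mp6g20760 and Mp6g20770 (chromosome 6, 23047559 to 23057521) formed another run without a gap. They averaged 38.8, 47.6 and 60.9 CPM in Mpb-gata1-2 plants and 16.8, 19.6 and 29.0 CPM in Mpb-gata1-1, against 0.664, 1.58 and 1.69 CPM in BoGa. All 3 were higher in Mpb-gata1-2 than in Mpb-gata1-1 and kept that call in each alternative run for single genes. On chromosome 7, 8504177 to 8544106, Mp7g07330, Mp7g07360 and Mp7g07370 were members with 2 other genes between them, of which Mp7g07340 did not pass between the mutants and BoGa (log2 0.04, edgeR adjusted p = 0.692). The run was thus interrupted by a gene at 43.0 to 48.2 CPM in Mpb-gata1-2 plants and 37.6 to 45.0 CPM in Mpb-gata1-1, against 38.0 to 43.9 CPM in BoGa.

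Genes beside the members that are neither members nor left out by name were tested between the mean of both mutants and BoGa. Of 170 such genes 122 were tested, and 36 of these (29.5%) were higher, against 22.9% of all tested genes. A further 28 (23.0%) were lower, against 26.2%. The median log2 change was 0.08 in the neighbours and -0.02 over all tested genes. A rise of at least 2-fold was called in 20 neighbours (16.4%), against 2.75% of all tested genes. Among the 20 were the LEA genes MpLEA-like19 (log2 2.21 ± 0.22 SE), MpLEA-like38 (4.30 ± 0.48) and MpLEA-like40 (2.22 ± 0.54), the hydrolase MpGH16.16 (2.21 ± 0.30) and MpCPT5 (4.31 ± 0.48), named here after their values were seen. Many of the 20 had low levels, and with a stricter filter (a mean log2 CPM of 1 or more, with 3 libraries at 1 CPM or more) 21 of 93 neighbours (22.6%) were higher, against 24.6% of all genes then tested, and 7 (7.53%, against 2.04%) by at least 2-fold.

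The wider LEA and dehydrin list, taken by symbol, had 72 genes, of which 65 were tested. In them 49 were higher in the mutants and 7 lower, with a median log2 change of 2.22, and 41 of the 49 by at least 2-fold. Over all tested genes 22.9% were higher, 26.2% lower and 2.75% higher by at least 2-fold. Of the 65, 18 are members and 9 were left out by name, which are high in the mutants by their choice and add nothing to the count. The other 38 are those left once the genes that meet the rule are set aside. They held 22 higher and 7 lower genes with a median of 0.33, against 22.9% higher and 26.2% lower of all tested genes. Some of these 38 changed as much as members did, among them MpLEA-like52 (fitted log2 4.93 ± 0.55 SE, resting on very few BoGa reads) and MpLEA-like38 (4.30 ± 0.48), which averaged 1.42 and 1.69 CPM in Mpb-gata1-2 plants and 0.398 and 0.953 CPM in Mpb-gata1-1, against 0.0204 and 0.0567 CPM in BoGa. Neither reached the minimum of 1 CPM in all 6 mutant libraries. MpLEA-like38 was under it only in replicates 2 and 3 of Mpb-gata1-1 (0.727 and 0.899 CPM).

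Dehydrins are a class of LEA proteins. MpDHN1 rose (log2 2.53 ± 0.19 SE, edgeR adjusted p = 5.44e-06), with means of 49.8 CPM in Mpb-gata1-2 plants and 31.3 CPM in Mpb-gata1-1, against 6.65 CPM in BoGa. MpDHN2 fell (-0.61 ± 0.07, 3.19e-05), with 27.2 CPM in Mpb-gata1-2 plants and 33.4 CPM in Mpb-gata1-1, against 44.7 CPM in BoGa, and MpDHN3 rose by 0.37 ± 0.09 (0.00777). MpLEA-like6 averaged 453 CPM in Mpb-gata1-2 plants and 588 CPM in Mpb-gata1-1, against 380.4 CPM in BoGa, and rose by 0.40 ± 0.06 (0.000301). MpLEA-like29 fell the most (-0.85 ± 0.11, 0.000135), with 45.2 CPM in Mpb-gata1-2 plants and 34.6 CPM in Mpb-gata1-1, against 69.2 CPM in BoGa. These non-members of the list were chosen after their values were seen.

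**Figure D5:**
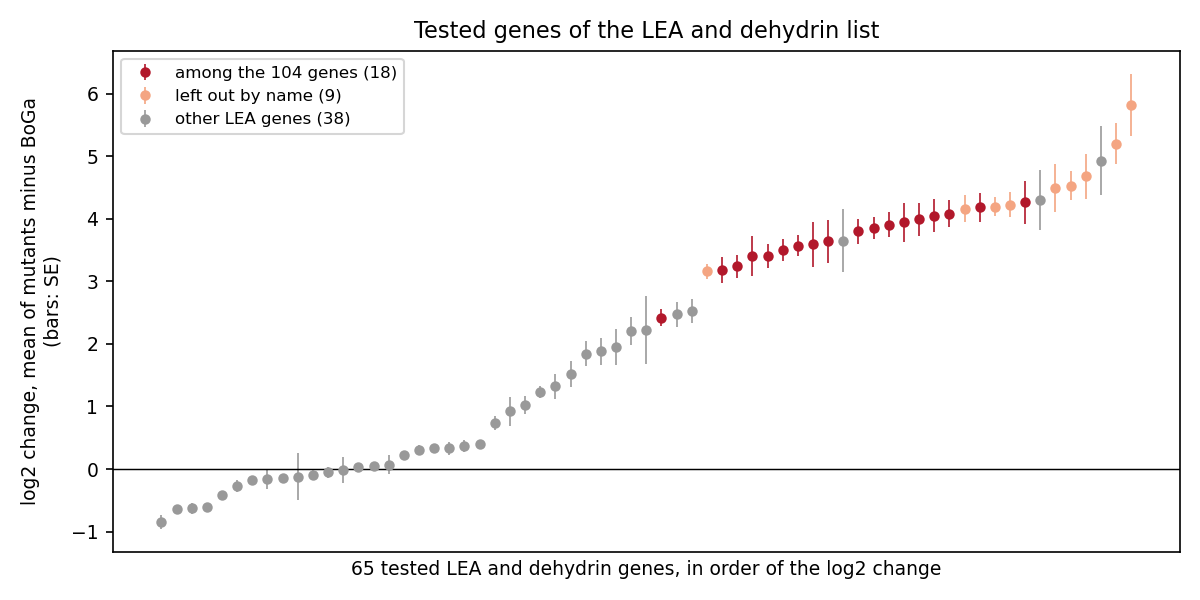
Log2 change (mean of both mutants minus BoGa, bars SE) of the 65 tested LEA and dehydrin genes in order of the change, with the 18 members in red, the 9 left out by name in light orange and the other 38 in grey. Red and orange points lie from 2.42 upward, as the choice of members requires, and grey points run from -0.85 to 4.93, with MpLEA-like52 and MpLEA-like38 above all red points.

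Genes that make or relay abscisic acid held no member, where members make up 0.518% of genes on chromosomes 1 to 8. Of 9 tested, 4 were higher in the mutants and 2 lower, with a median log2 change of -0.09, against 22.9% higher and 26.2% lower of all tested genes. The protein kinase MpSNRK2A (log2 0.24 ± 0.04 SE, edgeR adjusted p = 0.000911) and the transcription factors MpABI5A (0.25 ± 0.06, 0.00329), MpABI5B (0.41 ± 0.13, 0.0293) and MpABI3A (0.33 ± 0.07, 0.00323) rose. MpABA1 (-0.42 ± 0.12, 0.0130) and MpABA4 (-0.25 ± 0.08, 0.0189), genes of hormone synthesis, fell. The receptor MpPYL1 had -0.16 ± 0.09 and did not pass (0.174). Among 20 tested phosphatases of type 2C, which hold no member, 3 were higher and 4 lower, no larger a share than over all tested genes, and MpPP2C_A3 (3.52 ± 0.68, 0.00159) averaged 0.460 CPM in Mpb-gata1-2 plants and 0.335 CPM in Mpb-gata1-1, against 0.0308 CPM in BoGa.

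The families of the other named members mostly did not follow them when taken as whole lists, which include members and genes left out by name. Antioxidant genes, with MpDHAR4, held 9 higher and 14 lower genes of 53 tested (median log2 -0.05). MpCAT1 of this list, left out by name, had a log2 change of 4.54. Transporters, with MpSUT4, held 7 higher and 14 lower of 45 (-0.16). Glycoside hydrolases and expansins, with MpGH16.29, held 20 higher and 42 lower of 115 (-0.04). MpGH16.17 (5.28) and MpGH3.5 (4.40) of this list were left out by name. Genes with MTPSL or TPS-like symbols, with MpMTPSL2, held 2 higher and 5 lower of 13 (-0.03). The 7 tested MpTPS genes, further terpene synthases counted apart, held 2 higher and 4 lower. No member was found among 195 tested transcription factors (30 higher, 52 lower), 106 cytochrome P450s (15 and 45), 110 glycosyltransferases (35 and 23), 89 pathogenesis-related and cupin genes (9 and 53), 85 receptor kinases (13 and 13), 40 lipid transfer and lipid genes (13 and 13) or 30 dioxygenases (8 and 13). The 137 tested class III peroxidases (19 and 54) held no member, but 1 gene of that list that meets the rule was left out by name. Heat shock genes (1 higher and 1 lower of 6) and lipid droplet genes (1 higher of 3, left out by name) held none either. Members are only 104 of the 14360 tested genes, so by that share alone lists of these sizes would hold few or none. Their absence is no result about these families. Over all tested genes 3289 (22.9%) were higher and 3766 (26.2%) lower. This split turned to 4541 higher and 2510 lower in limma on log2(TPM + 1), which changes test and unit together. It was 3342 higher and 3727 lower with RLE scaling and 3338 higher and 3664 lower with DESeq2.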

How the data were processed

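RNA from 9 libraries was sequenced, and groups and replicate numbers came from the labels. The deposited tables hold, per the file headers, total and unique gene reads, which are raw counts, beside the authors' TPM and RPKM, both divided by whole gene length. How reads were aligned, to which build and with what use of strand is not given in the sources used here, and positions are as deposited. Symbols were matched by locus number to names of assembly MpTak2_v7.1 (17641 of 20574 genes matched, 3091 with a symbol). Of the 23 named members, 19 had a length within 20 bp of that table, the exceptions being MpLEA-like15, MpLEA-like37, MpLEA-like60 and MpLEA-like61. The tables held 0 columns of other samples.

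Unique gene reads were analysed with edgeR 4.0.16 (R 4.3.3): filterByExpr by group, TMM, robust quasi-likelihood fit with a term for each group over all 9 libraries, and Benjamini-Hochberg adjustment over 14360 genes. The biological coefficient of variation was 8.71%. The test was tested on simulated data. Printed CPM values are unscaled by TMM except where said, and log2 changes are fitted values. Alternatives used DESeq2 1.42.0, limma 3.58.1 on log2(TPM or RPKM plus a pseudocount of 1, or 0.1 for TPM), other scalings, filters, thresholds and left-out libraries. The members, symbol lists and tests were chosen with earlier results of these data known. Members to name were taken by rule: symbol and ratio to BoGa, level, difference between the mutants, list, run, and nearness to the limit. The list for sugars and osmolytes was not used as such, because its TPS symbols stand for terpene synthases in this species, and the list for light protection matched no gene.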

Additional observations from a re-analysis of the deposited data

Results flagged for a closer look

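Between the mutants, 66 of the 104 genes were higher in Mpb-gata1-2 and 4 lower in the edgeR test of that difference, against 15.2% and 16.1% of all tested genes. Higher in Mpb-gata1-2 with the largest log2 differences were Mp2g15320 (1.48), MpMTPSL2 (1.47), Mp5g02280 (1.44), MpLEA-like7 (1.41) and Mp7g07360 (1.35). The 4 lower genes were Mp5g02620 (-2.45), MpGH16.29 (-1.89), Mp7g01940 (-1.03) and Mp3g10380 (-0.81). These results were singled out because the lines differ under the same comparison with BoGa. Allele, line and V level cannot be told apart here.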

How the results depend on the processing

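The count of 104 genes was 99 to 121 with total reads, TMM or RLE scaling, the authors' TPM or their RPKM. Leaving out a library can only add genes, since the rule compares the lowest mutant with the highest BoGa library. The count was then 104 to 114, which says nothing of how stable the set is. It was 142 and 81 with folds of 2 and 5, 132 without a minimum level and 65 with a minimum of 5 CPM in each mutant library. The 66 genes higher in Mpb-gata1-2 were 53 to 75 under other counts, scalings, filters, units, DESeq2 and the fit to the mutants alone, 30 at an adjusted p under 0.01, 16 beyond a fold of 1.5 and 35 to 86 when a library was left out. The 4 lower genes were 3 to 5 throughout. Of 37 named members called between the mutants, 21 passed in each of 14 alternatives and 16 failed in at least 1, and none changed direction; the cause was not tested. The 36 higher neighbours were 21 with the stricter filter, which tests fewer genes, 16 beyond a fold of 1.5, 30 to 38 when a library was left out and 26 to 48 otherwise.

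Replicate numbers did not pair the libraries, with correlations of deviations of -0.27 to 0.28 and 2 of 9 libraries correlating best with their own number. With the replicate number as a block the counts were 75 higher and 4 lower members, and 35 higher neighbours. Depth limits what can be said of members with few BoGa reads.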
